A study of Mus musculus with 4 samples.

Results

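Potassium channel genes were examined in single nuclei of the mouse hippocampus. The members were the genes whose symbol starts with Kcn and that held at least 100 UMIs (unique molecular identifiers, each 1 counted transcript) over the 4 libraries. Of 99 such symbols among 32285 genes, 81 were kept and 18 fell below the limit. Just inside it lay Kcne2 with 103 UMIs, Kcnmb3 with 106 and Kcnk18 with 127, and just outside lay Kcng4 with 89, Kcnmb4os1 with 86 and Kcnj8 with 84. All 81 members were found in the gene annotation. They comprised 77 protein-coding genes and 4 antisense transcripts, namely Kcnq1ot1, Kcnd3os, Kcnmb4os2 and Kcnab3os.

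The study compared 2 wild-type (WT) mice with 2 mice that carried 1 Cyfip2 R87C allele (Cyfip2+/R87C, knock-in, KI), an epilepsy model kept on the C57BL/6N background, with WT littermates as controls. Cyfip2 encodes a subunit of the WAVE complex, which controls actin assembly. Each library held the nuclei of the hippocampus of 1 adult mouse. The labels give no age, and the study's text places these mice at the latest adult stage from which it took brain tissue. The allele is carried by every cell of these mice, so an effect within a class and an effect of its surroundings cannot be told apart. The treatment label of KI replicate 2 reads R88C and its protocol R87C, and it was kept in KI by its genotype label. All libraries had the same batch label.

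Potassium channels let potassium leave the cell and so set the resting potential, end action potentials and limit repetitive firing. Voltage-gated (Kv) channels are assembled from pore-forming alpha subunits, of which some act only as partners of others, and bind auxiliary subunits. Inward rectifiers (Kir, Kcnj), 2-pore leak channels (Kcnk) and calcium- or sodium-activated channels (Kcnma, Kcnn, Kcnt) form the other branches. Inherited changes in several of these genes cause epilepsy in humans, and expression of others is known to change after seizures in rodents.

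The 4 libraries held 55640 barcodes, and 73009975 to 80913580 UMIs each. After filtering, 52033 nuclei were kept (11932 to 14927 per library), with a median of 3868 to 4698 UMIs per nucleus in a library. Pairs of libraries shared 40 to 67 barcodes. Clustering without the Kcn genes gave 36 clusters, of which 18 could be given 1 of 16 class names by markers. The unnamed clusters held 11543 nuclei, 2255 and 2380 of WT and 2580 and 4328 of KI. The kept nuclei numbered 14927 and 12372 in WT and 11932 and 12802 in KI, so KI replicate 2 lost the most from the classes. The part of this uneven loss in the class values was not tested. Classes with at least 20 nuclei in every library were tested. DG (dentate gyrus) granule neurons were the largest, with 4305 and 3292 WT nuclei, and with 2472 and 2221 KI nuclei by library. CA1 pyramidal neurons numbered 2279 and 1634 in WT and 1474 and 1658 in KI. DG granule neurons lay in 2 clusters that separated largely by genotype. The cluster led by Onecut1 and Dsp held 4090 and 3120 nuclei of WT but only 211 and 629 of KI, whereas the cluster led by Mylk3 and Gm30551 held 215 and 172 nuclei of WT and 2261 and 1592 of KI. Hence WT and KI values of this class come mostly from different clusters.

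Levels are given as CPM, the UMIs of a gene per 1000000 UMIs of the class in that library, always in the order WT replicates 1 and 2, then KI replicates 1 and 2. Differences are log2 fold changes of KI over WT from edgeR's quasi-likelihood test, with p-values adjusted by Benjamini and Hochberg over all genes tested in a class, and a gene is called at an adjusted p below 0.05. The 2 mice of a group were the replicates, so p-values measure the spread between these mice only.

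With all libraries, DG granule neurons had the most called potassium channel genes. There, 18 of the 76 members tested were called, 12 lower and 6 higher in KI, which is 23.7% beside 9.66% of all genes tested. The median log2 fold change of the tested members was -0.00, as was that of all genes (-0.00), whereas their median absolute change was 0.38 beside 0.30 (in microglia, with 0 calls, it was 0.44 beside 0.28). A fit without 1 library holds 1 mouse of that group, so its spread comes from the 2 mice of the other group alone. Calls were lost without either WT library and gained without either KI library, and the share of all genes called moved with them. Only Kcnh5, Kcng3 and Kcnip4 kept their calls in each of these fits. The log2 fold changes of the 18 kept their sign, ranging from -1.02 to -0.98 for Kcnk9 and from -1.55 to -0.79 for Kcnmb2. The other 15 calls below were thus lost without either WT library. The promoters of 4 members are shown here: those of Kcnh5 and Kcng3, the called members that fell most in DG granule neurons, of Kcnj9, the called member with the highest rise there, and of Kcnk10, which was lower in all 3 of the DG granule, CA1 and CA3 classes. Each is the 250 bases before the RefSeq start (GRCm38.p6), written in the direction of the gene, with capitals for matches of motif letters on either strand. The motifs searched were TATAAA, the TATA box, and TGACG, the core of the cAMP response element. The whole of that element, TGACGTCA, contains the core and was searched as well. The AP-1 motif was TGANTCA. The EGR motif was GCGNGGGCG.
Kcnh5, chr12:75177333-75177582, minus strand: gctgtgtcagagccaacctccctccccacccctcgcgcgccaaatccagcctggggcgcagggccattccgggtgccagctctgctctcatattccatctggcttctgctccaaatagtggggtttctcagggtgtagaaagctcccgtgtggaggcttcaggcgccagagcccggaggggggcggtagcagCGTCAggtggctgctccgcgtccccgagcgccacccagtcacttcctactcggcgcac
Kcng3, chr17:83631896-83632145, minus strand: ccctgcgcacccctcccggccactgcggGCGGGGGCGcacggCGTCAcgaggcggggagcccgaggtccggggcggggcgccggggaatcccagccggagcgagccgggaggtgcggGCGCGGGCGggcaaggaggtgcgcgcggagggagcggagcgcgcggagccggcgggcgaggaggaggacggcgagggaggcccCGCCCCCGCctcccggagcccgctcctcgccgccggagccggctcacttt
Kcnk10, chr12:98578214-98578463, minus strand: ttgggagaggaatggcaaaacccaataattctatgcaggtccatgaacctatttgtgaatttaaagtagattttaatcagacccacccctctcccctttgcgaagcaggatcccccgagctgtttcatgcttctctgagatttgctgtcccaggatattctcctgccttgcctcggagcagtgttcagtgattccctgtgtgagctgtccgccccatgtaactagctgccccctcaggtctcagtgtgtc
Kcnj9, chr1:172329323-172329572, minus strand: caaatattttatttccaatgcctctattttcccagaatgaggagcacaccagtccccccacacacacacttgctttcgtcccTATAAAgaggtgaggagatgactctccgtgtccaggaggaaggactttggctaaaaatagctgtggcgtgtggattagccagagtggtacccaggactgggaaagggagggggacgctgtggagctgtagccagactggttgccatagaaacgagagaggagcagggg
The stretch shown for Kcnk10 reaches into the gene as GENCODE places it, since the RefSeq start lies further in. The Kcng3 promoter was 82.4% G and C and that of Kcnh5 65.6%, against 50% for Kcnk10 and 52.0% for Kcnj9. Over the 300 bases around the start (50 of them after it), the median was 62.0% in the 57 members that had an entry and 52.7% in all 27025 genes. TGACG lay in 28.1% of the members' promoters and 21.0% of all, TGANTCA in 3.51% and 7.93%, GCGNGGGCG in 5.26% and 5.55%, TATAAA in 3.51% and 14.2%, and TGACGTCA in 0 of the 57 members and 1.88% of all. A match of letters is a description and not a site of binding.

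The Kcnh (ether-a-go-go) family held the largest fall. Kcnh5 encodes Kv10.2, a voltage-gated channel known from human epilepsy, and lies at chr12:74897220-75177332 on the minus strand. In DG granule neurons it stood at 52.9 and 47.8 CPM in WT, against 6.10 and 9.89 in KI. The groups lay far apart, and the log2 fold change was -2.54 (SE 0.21, adjusted p = 0.00316), or 5.81-fold lower. Kcnh5 was called under all 14 alternatives tried. Its level was higher elsewhere in the WT hippocampus: in mossy cells it was 213 and 159.7 CPM in WT, against 109.9 and 179 in KI, where the groups overlapped. Kcnh7 encodes Kv11.3 (erg3), a channel that resists repetitive firing, and fell in DG granule neurons from 302 and 312 to 176 and 161 CPM (log2 fold change -0.73, SE 0.10, adjusted p = 0.0114). Kcnh3, which encodes Kv12.2, rose from 24.6 and 24.4 to 34.9 and 31.7 CPM (0.58, SE 0.13, adjusted p = 0.0455), a call also lost with library totals. All 8 Kcnh members were tested in this class and the other 5 did not pass, among them Kcnh1 (Kv10.1) at 195, 202, 161 and 206 CPM.

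Kcng genes encode silent Kv subunits, which make channels only together with Kv2 subunits, and 2 of the 3 were called lower. Of the other silent families, 0 of 3 Kcns, 0 of 2 Kcnv and 0 of 1 Kcnf genes were called. Kcng3 (Kv6.3, chr17:83585957-83631895) went from 23.9 and 28.3 CPM to 6.10 and 6.08 CPM in DG granule neurons (log2 fold change -1.96, SE 0.17, adjusted p = 0.00323), 3.89-fold lower, and was called under all 14 alternatives. Kcng2 (Kv6.2) fell from 70.0 and 75.0 to 31.6 and 41.0 CPM (-0.87, SE 0.14, adjusted p = 0.0155). The other member, Kcng1 (Kv6.1), stood at 34.5, 39.5, 26.1 and 26.7 CPM and did not pass. The summed level of the 3 Kcng genes was 128 and 143 CPM in WT, against 63.9 and 73.8 in KI.

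Kv4 channels carry the A-type current of dendrites, and KChIP proteins (Kcnip) bind them and set their trafficking and gating. The Kcnip genes moved in both directions in DG granule neurons, with 3 of 4 members called. Kcnip4, the KChIP gene with the most UMIs, rose from 9863 and 10060 to 13740 and 13540 CPM (log2 fold change 0.59, SE 0.06, adjusted p = 0.00506) and was called under all 14 alternatives. It covers chr5:48389502-49524907, a span that other annotated transcripts overlap on both strands, so its value is uncertain to that extent. Kcnip3, which encodes DREAM (a KChIP that also binds DNA), rose from 122 and 134 to 175 and 202 CPM (0.69, SE 0.10, adjusted p = 0.0138). Kcnip2 went the other way, from 106 and 115 to 56.5 and 51.5 CPM (-0.89, SE 0.12, adjusted p = 0.00899). Kcnd2 (Kv4.2) itself was 3862, 3573, 2659 and 3146 CPM, with both KI libraries below both WT libraries, but it did not pass (log2 fold change -0.22, adjusted p = 0.149). Kcnd3 (Kv4.3) lay at 338, 346, 339.7 and 321 CPM.

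**Figure D1:**
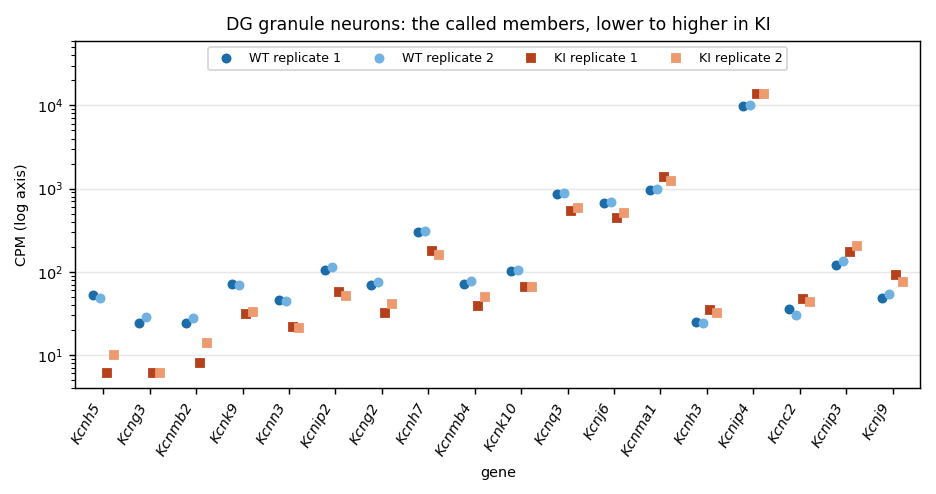
CPM (log axis) in DG granule neurons of the 18 called members, 1 point per library (circles WT, squares KI), ordered from the largest fall to the largest rise. WT and KI points are apart for each gene, with the widest gap at Kcnh5 (52.9 and 47.8 against 6.10 and 9.89 CPM).

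Of the leak channel genes, 2 were called lower in the same neurons. Kcnk9 encodes TASK-3, an acid-sensitive leak channel, and went from 70.4 and 68.9 to 31.1 and 32.6 CPM (log2 fold change -0.99, SE 0.11, adjusted p = 0.00537). Kcnk10 encodes TREK-2, which opens on stretch and lipids, and went from 103 and 105 to 65.2 and 66.0 CPM (-0.53, SE 0.10, adjusted p = 0.0241). Of the 12 Kcnk members, 10 were tested here, and the other 8 did not pass. The median log2 fold change of the 10 was -0.27, and single values went up to 1.09 for Kcnk6 (not called).

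Among calcium-activated channels, Kcnma1, the pore of the large-conductance BK channel, rose from 964 and 979.5 to 1387 and 1229 CPM (log2 fold change 0.57, SE 0.10, adjusted p = 0.0217). Both BK beta subunits that were tested fell. Kcnmb4, the neuronal beta subunit, went from 71.2 and 77.8 to 39.2 and 49.5 CPM (-0.62, SE 0.13, adjusted p = 0.0369), and Kcnmb2, a beta subunit that inactivates the channel, from 24.4 and 27.9 to 7.93 and 14.0 CPM (-1.14, SE 0.25, adjusted p = 0.0389). Kcnmb2 in this class is low beside inhibitory neurons, which held 1113 and 1089 CPM in WT, against 921 and 940.2 in KI, and oligodendrocytes held 14.2 to 17.1 CPM. With the marker gate the log2 fold change was -0.53 for Kcnmb2 (adjusted p = 0.355) and -0.56 for Kcnmb4 (adjusted p = 0.0724), and both calls were lost. Whether RNA from other cells takes part in the DG value of Kcnmb2 was not tested. Kcnn3 encodes SK3, a small-conductance channel behind the afterhyperpolarization, and fell from 46.3 and 44.6 to 21.5 and 20.9 CPM (-0.96, SE 0.12, adjusted p = 0.00857).

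Kcnq genes encode the M-current channels, which damp repeated firing. Kcnq3 (Kv7.3) fell in DG granule neurons from 867 and 894 to 533 and 585.5 CPM (log2 fold change -0.52, SE 0.08, adjusted p = 0.0139). Kcnq5 (Kv7.5) stood at 94.3, 80.9, 81.9 and 81.8 CPM with a log2 fold change of 0.04 and did not pass. The GIRK channels (Kcnj3, Kcnj6, Kcnj9), opened by G protein coupled receptors, split. Kcnj9 (GIRK3) rose from 48.3 and 53.5 to 90.3 and 75.0 CPM (0.84, SE 0.14, adjusted p = 0.0197), Kcnj6 (GIRK2) fell from 671 and 688 to 447 and 506.5 CPM (-0.38, SE 0.08, adjusted p = 0.0416), and Kcnj3 (GIRK1) lay at 712, 651, 472 and 768 CPM, where the groups overlapped. The Kcnj6 call was also lost with DESeq2. Kcnc2 (Kv3.2), a fast-spiking channel, rose from 35.2 and 30.3 to 47.4 and 42.8 CPM (0.60, SE 0.14, adjusted p = 0.0495). This call was also lost with library totals and with doublets kept. Kcnc2 is low in this class beside inhibitory neurons, which held 1698 to 2075 CPM, and oligodendrocytes held 86.3 to 122 CPM. The part of stray RNA in the DG value of Kcnc2 was not tested.

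In CA1 pyramidal neurons the members stood out less, with 4 of 70 called (2 higher and 2 lower), or 5.71%, beside 7.27% of all genes. Scaled by library totals rather than TMM, 1 was called higher and 5 lower, beside 7.4% of all genes. The median log2 fold change of all genes was then -0.09. Without WT replicate 1 or without WT replicate 2 the count was 2 (Kcnk10 and Kcnq1), without KI replicate 1 it was 21 of 72 and without KI replicate 2 it was 27 of 70. All genes moved likewise, with 1.25%, 1.16%, 23.3% and 41.9% called in this order. Kcnk10 (TREK-2, chr12:98429437-98578310) fell from 33.5 and 31.7 to 12.2 and 10.8 CPM (log2 fold change -1.41, SE 0.16, adjusted p = 0.00555), 2.65-fold lower, and was called under all 14 alternatives. With the marker gate its log2 fold change was -0.89 (adjusted p = 0.0385), against -1.56 to -1.27 with 1 library left out. Kcng1, a silent subunit, fell from 8.17 and 9.33 to 2.03 and 3.88 CPM (-1.48, SE 0.30, adjusted p = 0.0334), below the 10 CPM of the naming rule, so it was chosen after its values were seen. Its call was lost under 5 of 14 alternatives, among them 2 times the resolution, the marker gate and no low-count filter. Kcnip3 rose from 64.4 and 70.1 to 84.6 and 131 CPM (0.76, SE 0.17, adjusted p = 0.0428) and lost its call under 8 of 14 alternatives.

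Kcnq1 had the highest log2 fold change among the 43 called values. It encodes Kv7.1, best known from the heart and inner ear, and it was also below 10 CPM, so it was chosen after its values were seen. In CA1 pyramidal neurons it stood at 0.95 and 0.93 CPM in WT, against 8.84 and 6.72 in KI (log2 fold change 3.13, SE 0.33, adjusted p = 0.00509), or 0.00526 and 0.00612 UMIs per nucleus in WT and 0.0678 and 0.0428 in KI. At 2 times the clustering resolution the log2 fold change of Kcnq1 in CA1 was 1.67 and the call was lost (adjusted p = 0.107). At that resolution the CA1 class held 1994 and 1393 nuclei of WT and 711 and 1083 of KI, and an unnamed cluster appeared with 50 and 30 nuclei of WT and 900 and 661 of KI. Subicular or cortical excitatory neurons went the same way, with 1.37 and 1.22 against 11.1 and 7.17 CPM for Kcnq1, but did not pass (2.84, SE 0.54, adjusted p = 0.101). Kcnq1 was also higher over all nuclei (2.30 and 3.09 against 11 and 9.09 CPM, 1.95, SE 0.22, adjusted p = 0.0368). Kcnq1 lies at chr7:143106362-143427042, where the antisense transcript Kcnq1ot1 lies on the other strand. Kcnq1ot1 stood at 459.5 and 464 CPM in WT, against 414 and 571 in KI in CA1, with overlapping groups. The strand setting of the counting was not given in the sources used here.

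In CA3 pyramidal neurons 5 of 67 members were called (2 higher and 3 lower), or 7.46%, beside 2.59% of all genes. With library totals, 0 were higher and 3 lower, beside 1.51% of all genes called. Kcnk10, Kcnq3 and Kcnt1 lost their calls without WT replicate 1 and without WT replicate 2, and Kcnrg without WT replicate 1. Kcnk10 fell here too (65.6 and 65.2 to 37.8 and 39.4 CPM, log2 fold change -0.68, SE 0.12, adjusted p = 0.0328), as did Kcnq3 (642 and 654 to 411 and 431 CPM, -0.54, SE 0.09, adjusted p = 0.0227). Kcnrg, whose product holds back the assembly of Kv1 channels, fell from 37.2 and 30.5 to 15.2 and 17.6 CPM (-0.97, SE 0.17, adjusted p = 0.0320). Kcnrg overlaps Dleu2 on the other strand. Kcnip1 (KChIP1) rose from 5.78 and 3.04 to 12.0 and 16.5 CPM (1.72, SE 0.31, adjusted p = 0.0320), and Kcnt1 (Slack, a sodium-activated channel known from epilepsy) from 8.76 and 6.81 to 13.7 and 18.0 CPM (1.08, SE 0.22, adjusted p = 0.0468). Kcnip1 is abundant in inhibitory neurons (378 to 409 CPM), and the part of stray RNA in its CA3 value was not tested.

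**Figure D2:**
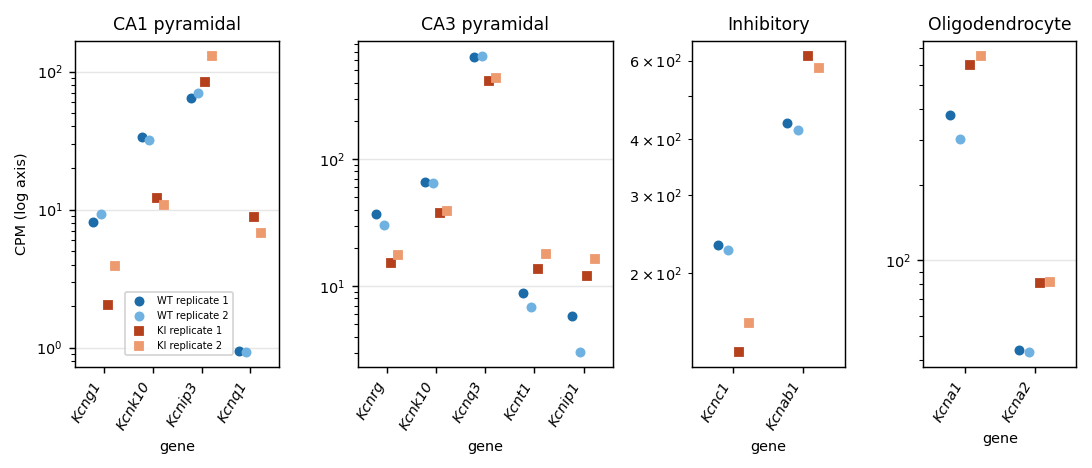
CPM (log axis, a separate scale in each panel) of the called members in CA1 pyramidal, CA3 pyramidal, inhibitory neurons and oligodendrocytes, 1 point per library (circles WT, squares KI). WT and KI points do not overlap for these genes. Kcnk10 is lower in KI in both pyramidal classes.

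Whether the genotype effect differed between DG granule and CA1 pyramidal neurons was asked with an interaction of class and genotype, in a fit that kept the nuclei of 1 mouse together as a block. It passed for 28 of 76 members (16 with a higher and 12 with a lower effect in CA1), or 36.8%, beside 14.1% of all genes. Fewer members passed without either WT library, in fits that hold 1 WT mouse. The share of all genes called in those fits is not given, so whether the fall is particular to the members was not tested. The differences of effects, CA1 minus DG, were largest for Kcng3 (2.76, SE 0.31, adjusted p = 2.42e-05), Kcnq1 (2.67, SE 0.39, adjusted p = 0.000262) and Kcnh5 (2.23, SE 0.14, adjusted p = 9.03e-08). In CA1, Kcng3 was at 2.62, 2.15, 4.77 and 3.03 CPM, and it was not called there. Kcnh5 stood in CA1 at 32.9 and 29.4 CPM in WT, against 17.0 and 31.3 in KI, where the groups overlapped. Kcnk9 was 62.7, 61.7, 79.3 and 68.7 CPM in CA1, and its effects differed by 1.34 (SE 0.11, adjusted p = 1.77e-06). Kcnj9 was 33.2, 34.4, 23.6 and 23.1 CPM in CA1, both KI libraries below WT, and its effects differed by -1.28 (SE 0.11, adjusted p = 2.75e-06). The difference was 1.19 for Kcnmb2 (SE 0.31, adjusted p = 0.0198), and -0.63 for Kcnip4 (SE 0.08, adjusted p = 8.44e-05), which was at 7951, 8144, 7442 and 7221 CPM in CA1. Kcnk10 was called lower in both classes, and its effect in CA1 was lower by a difference of -0.88 (SE 0.13, adjusted p = 0.000240).

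**Figure D3:**
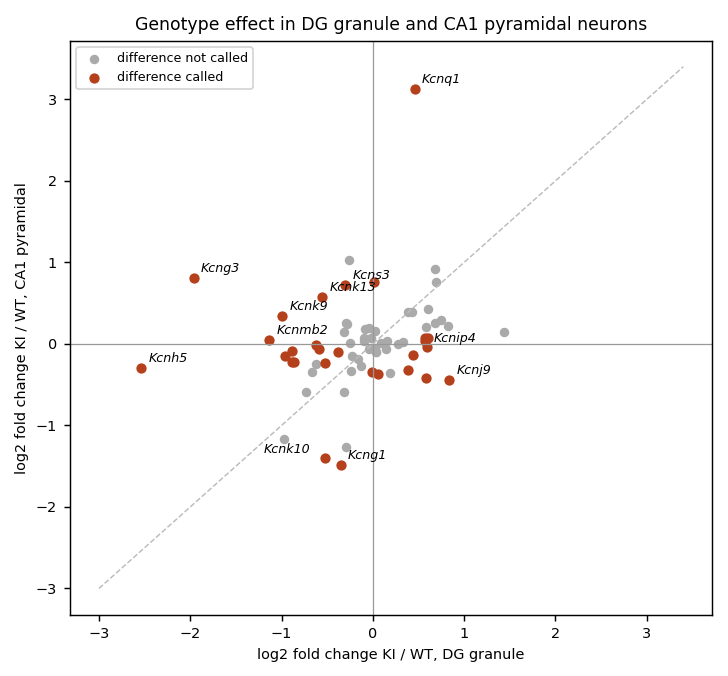
Log2 fold change of KI over WT for each member in DG granule (x axis) and CA1 pyramidal neurons (y axis). Red points had a called difference, grey points had not, and the dashed line marks equal effects. Kcnh5 (-2.54) and Kcng3 (-1.96) lie far to the left, and Kcnq1 lies at the top (3.13 in CA1).

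Inhibitory neurons had 2 of 71 members called, or 2.82%, beside 1.49% of all genes. Kcnc1 (Kv3.1), which lets interneurons fire fast, fell from 232 and 226 to 133 and 155 CPM (log2 fold change -0.56, SE 0.10, adjusted p = 0.0378). Kcnab1, an auxiliary beta subunit of Kv1 channels, rose from 435 and 420.2 to 616 and 578 CPM (0.59, SE 0.10, adjusted p = 0.0288). Both calls were lost without WT replicate 1, without WT replicate 2 and with doublets kept.

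By interneuron type, Lamp5 interneurons had 4 of 49 members called, or 8.16%, beside 3.96% of all genes. With library totals, 0 were higher and 2 lower, beside 3.2% of all genes called. All 4 calls were lost without WT replicate 1, and those other than Kcnmb2 without WT replicate 2. Kcnmb2 fell there from 1050 and 962 to 591 and 595 CPM (log2 fold change -0.67, SE 0.13, adjusted p = 0.00111), and Kcnc1 from 238 and 201 to 131 and 135 CPM (-0.63, adjusted p = 0.0221). Kcnab1 rose from 467 and 438 to 616 and 556 CPM (0.47, adjusted p = 0.0432), and Kcnt2 (Slick) from 214 and 246 to 329.8 and 301 CPM (0.55, adjusted p = 0.0293). Pvalb interneurons had 1 of 45 members called beside 0.269% of all genes: Kcnip2 fell from 99.0 and 90.8 to 31.4 and 41.2 CPM (-1.22, SE 0.24, adjusted p = 0.0479). Kcnc1 in the Pvalb type was 332, 323, 173.5 and 237 CPM and did not pass. Sst interneurons had 1 of 47 called beside 0.397%: Kcnab1 rose from 264 and 298 to 434 and 437 CPM (0.78, SE 0.15, adjusted p = 0.0295). The Pvalb and Sst calls were lost without either WT library. Vip interneurons had 0 of 40 called beside 0.112%, with 7 at an unadjusted p below 0.05 in edgeR (770 of 8000 over all genes) and 0 called by DESeq2.

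Kcnip4 rose in 2 further classes. Cnr1 interneurons had 1 of 46 members called beside 0.4% of all genes, Kcnip4, at 1033 and 1621 CPM in WT, against 3026 and 2610 in KI (log2 fold change 1.20, SE 0.14, adjusted p = 9.86e-05). This call was lost with DESeq2. Cajal-Retzius cells had 1 of 19 called beside 0.117%, again Kcnip4, at 3192 and 3059 CPM in WT, against 6962 and 6155 in KI (1.15, SE 0.17, adjusted p = 4.96e-05), a call lost with the marker gate. The set of this name under the gate held 1204 nuclei, against 239 in the class, so the 2 differ in their nuclei. Per nucleus, Kcnip4 went from 5.13 and 5.89 UMIs to 15.8 and 12.8 UMIs in Cajal-Retzius cells and from 7.42 and 11.9 to 26.7 and 18.5 in Cnr1 interneurons. Both KI libraries also lay above both WT libraries, without a call, in Lamp5 interneurons (7.28 and 7.03 against 10.65 and 10.64) and Vip interneurons (31.7 and 31.05 against 37.8 and 36.2). The same held in mossy cells and astrocytes. The genotypes overlapped in CA1 and CA3 pyramidal neurons, subicular or cortical excitatory neurons and Pvalb interneurons. Oligodendrocytes held 1.75 to 2.23 Kcnip4 UMIs per nucleus and Sst interneurons 5.61 to 6.87, and the genotypes overlapped in the Sst type. Microglia held 9.23, 6.72, 3.03 and 17.2 Kcnip4 UMIs per nucleus and OPCs (oligodendrocyte precursor cells) 6.25, 4.24, 3.19 and 15.4, highest in KI replicate 2 in both.

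Glia gave few calls. Oligodendrocytes had 2 of 56 members called, both higher in KI, or 3.57%, beside 0.827% of all genes. At 2 times the resolution this class fell into 2 clusters that separated largely by genotype, 1 with 2021 and 1213 nuclei of WT and 74 and 408 of KI, the other with 22 and 14 of WT and 2043 and 444 of KI, so at that resolution most WT and most KI nuclei lay in different clusters. With library totals, 1 further member was called lower, beside 0.842% of all genes called. Kcna1 (Kv1.1, chr6:126640397-126646384) rose from 377 and 303 to 601 and 653 CPM (log2 fold change 0.94, SE 0.17, adjusted p = 0.0354), and Kcna2 (Kv1.2, chr3:107101146-107115005) from 44.1 and 43.2 to 81.3 and 82.0 CPM (0.97, SE 0.18, adjusted p = 0.0397). These Kv1 subunits assemble with each other and sit along myelinated axons. Kcna1 had 0.585 and 0.486 UMIs per nucleus in WT oligodendrocytes and 0.971 and 1.02 in KI. It had 0.170 to 0.315 in CA1 pyramidal neurons, 0.473 to 0.923 in CA3 pyramidal neurons and 0.764 to 1.16 in Pvalb interneurons. The neuronal gene Kcnip4 stood at 2.04, 1.75, 2.23 and 2.05 UMIs per nucleus in oligodendrocytes. The part of stray RNA in the oligodendrocyte value of Kcna1 was not tested. The Kcna1 and Kcna2 calls were both lost without WT replicate 1, without WT replicate 2 and with the marker gate. Kcna2 also lost its call with DESeq2, and Kcna1 with nuclei of at least 1000 genes. Astrocytes had 0 of 48 called beside 0.0932%, with 9 at an unadjusted p below 0.05, as were 1205 of all 10725 genes tested. Kcnj10 (Kir4.1), which clears extracellular potassium, was 92.3 and 90.0 CPM in WT astrocytes and 205 and 126 CPM in KI, where the groups lay apart but did not pass (0.90, SE 0.25, adjusted p = 0.190). Kcnn2 (SK2) in astrocytes was 764, 821, 322 and 572 CPM (-0.79, adjusted p = 0.222). OPCs had 0 of 48 called beside 0.0103%, and microglia 0 of 39 beside 0%, with 6 and 2 members at an unadjusted p below 0.05, beside 839 of 9721 and 474 of 8041 over all genes. Fibroblasts (0 of 12, 1 at an unadjusted p below 0.05 beside 166 of 2294) and mural cells (0 of 4, with 0 at that limit beside 32 of 420) also had 0% of all genes called. Subicular or cortical excitatory neurons had 0 of 65 called beside 0.0819%, with 14 at an unadjusted p below 0.05, beside 1662 of 13429 over all genes. Without WT replicate 1 there were 4 called beside 0.98% of all genes, and without WT replicate 2 there were 5 beside 2.67%. Mossy cells had 0 of 35 beside 1.63%, with 6 at an unadjusted p below 0.05 beside 974 of 6977. In each class of this paragraph with 0 called by edgeR, DESeq2 called 0 as well.

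Summed over all nuclei, 4 of 81 members were called beside 0.889% of all genes. Kcnip2 (78.1, 72.8, 36.0 and 45.0 CPM), Kcng2 (38.8, 34.2, 19.5 and 20.4 CPM) and Kcnk10 (64.6, 68.1, 33.7 and 40.0 CPM) were lower in KI, with log2 fold changes of -0.85, -0.82 and -0.80, and Kcnq1 was higher as given above. Without WT replicate 1, the Kcnip2, Kcng2 and Kcnk10 calls were lost, and without WT replicate 2 those of Kcng2 and Kcnk10. In these sums, fewer nuclei of a class and less RNA per nucleus cannot be told apart. All members together took 1.91% and 1.90% of the UMIs in WT and 1.82% and 1.85% in KI. In DG granule neurons they took 2.18% in both WT libraries, and 2.34% and 2.41% in KI. The rise of Kcnip4 alone was larger than this step.

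**Figure D4:**
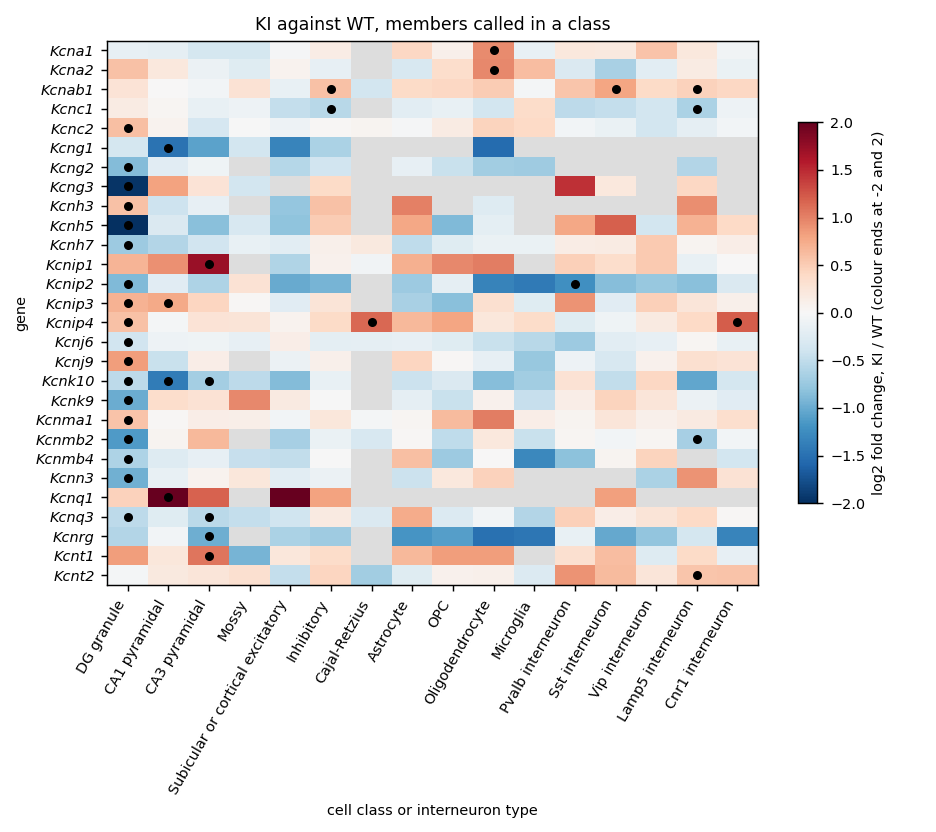
Log2 fold change of KI over WT (colour) of the members called in at least 1 class, by cell class and interneuron type. Black dots mark an adjusted p below 0.05 and grey cells were not tested. The DG granule column holds 18 dots, and the row of Kcnk10 has dots in 3 classes.

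Across the epilepsy genes of this family (14, chosen for their links to human disease), 4 were called in DG granule neurons (Kcnh5, Kcnq3, Kcnc2 and Kcnma1), 0 in CA1 pyramidal neurons, 2 in CA3 pyramidal neurons (Kcnq3 and Kcnt1), 1 in inhibitory neurons (Kcnc1), 2 in Lamp5 interneurons (Kcnt2 and Kcnc1) and 2 in oligodendrocytes (Kcna1 and Kcna2). The shares over all genes were 9.66%, 7.27%, 2.59%, 1.49%, 3.96% and 0.827% in this order. Kcna1 in DG granule neurons was 86.2, 83.7, 49.3 and 90.4 CPM, and in CA3 97.2, 96.1, 47.3 and 99.0 CPM. KI replicate 1 was the low library for Kcna1 in both classes, and the groups overlapped. Kcna2 in DG granule neurons went from 19.1 and 23.1 to 28.7 and 28.8 CPM, with an adjusted p of 0.0573. Kcnh1 in CA1 was 68.7 and 74.1 CPM in WT, against 84.5 and 143.5 in KI (0.76, SE 0.20, adjusted p = 0.0656). Kcnt2, Kcnq5, Kcnc1 and Kcnj10 did not pass in DG granule, CA1 or CA3 neurons.

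Of 29 partner genes, which bind potassium channels or act beside them, 24 were tested in DG granule neurons and 3 were called, beside 9.66% of all genes. Dpp10, an auxiliary subunit of Kv4 channels, rose in DG granule neurons from 66.2 and 115 to 182 and 198 CPM (log2 fold change 1.21, SE 0.24, adjusted p = 0.0309), in CA1 from 50.1 and 70.3 to 129.7 and 205 CPM (1.56, SE 0.22, adjusted p = 0.0122) and, in mossy cells, by 1.43 on the log2 scale (SE 0.19, adjusted p = 4.75e-07). Its relative Dpp6 was 1456, 1400, 1128 and 1179 CPM in DG granule neurons and did not pass. Adam23, a receptor of the epilepsy protein LGI1, rose in DG granule neurons (0.61, SE 0.14, adjusted p = 0.0446), and Abcc8, the sulphonylurea receptor of ATP-sensitive channels, fell there from 59.1 and 61.7 to 26.5 and 33.0 CPM (-0.89, SE 0.13, adjusted p = 0.0123). Cntnap2, which clusters Kv1 channels on axons, fell in CA1 from 5747 and 6043 to 4032 and 3694 CPM (-0.51, SE 0.09, adjusted p = 0.0255) and in CA3 from 3882 and 3765 to 2706 and 2479 CPM (-0.48, adjusted p = 0.0328). It rose in Lamp5 interneurons (0.50, SE 0.11, adjusted p = 0.00768). The scaffold gene Dlg4 fell in CA1 (-0.55, adjusted p = 0.0232) and Rgs7bp, a regulator of GIRK signalling, in mossy cells (-0.80, adjusted p = 0.0297). The 24 partners tested in CA1 and the 24 in CA3 thus held 3 and 1 called genes, beside 7.27% and 2.59% of all genes.

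The cell classes differed widely in which potassium channel genes they held. These levels are a description without a test, since the classes were made from the same nuclei. Classes were ranked with inhibitory neurons as 1 class, so an interneuron type can lie above the class named highest or next. Of the 57 members with at least 20 CPM in a class, 11 were highest in DG granule neurons, 5 in astrocytes, 5 in Cajal-Retzius cells and 4 or fewer in each other class. For 20 of them the 4 libraries of the highest class lay above those of the next class. With each nucleus gated by its own markers, 40 of the 57 had the same highest class. Fewest nuclei stood behind mural cells (20 to 30 per library), where 1 UMI moved a value, so the genes highest there, among them Kcnh6 and Kcnv1, are named only.

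Among voltage-gated subunits, Kcnc2 (Kv3.2) was highest in inhibitory neurons at 1837, 2075, 1698 and 1981 CPM, 14.2 times the median class, and it ranged there from 3344 to 4217 CPM in the Pvalb type to 416 to 547 CPM in the Lamp5 type. Kcns3 (Kv9.3, a silent subunit) was also highest in inhibitory neurons at 101, 90.3, 69.5 and 51.3 CPM, with 108 to 177 CPM in Lamp5 interneurons. Kcnb2 (Kv2.2) stood at 2657, 3900, 3510 and 3746 CPM in Cajal-Retzius cells, far above Vip interneurons (1025 to 1203 CPM) and CA1 pyramidal neurons (534 to 704 CPM). Kcnh7 was likewise highest in Cajal-Retzius cells, at 3640 to 5140 CPM. Kcnq5 (Kv7.5) was highest in CA3 pyramidal neurons at 4570, 4993, 4459 and 5679 CPM, with Cajal-Retzius cells at 1961 to 2642 CPM. Kcnd2 (Kv4.2) was highest in CA1 (3739 to 4744 CPM) but overlapped with DG granule neurons (2659 to 3862 CPM). Kcng1 and Kcnj6 were highest in DG granule neurons, and for Kcnj6 all 4 libraries lay above those of CA3 pyramidal neurons. Kcnt2 stood at 821, 883, 1079 and 823 CPM in Vip interneurons, above mossy cells (418 to 549 CPM) and CA3 pyramidal neurons (357 to 406 CPM).

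Auxiliary subunits were as uneven. Kcnmb2 was 61.4 times higher in inhibitory neurons than in the median class, and the next class, Cajal-Retzius cells, held 110.2 to 185 CPM. Kcnmb4 was highest in subicular or cortical excitatory neurons (116 to 177 CPM). Kcnip1 was highest in Cajal-Retzius cells (350.5 to 506 CPM), which overlapped with inhibitory neurons (378 to 409 CPM) and lay below the Cnr1 type (626 to 710 CPM). Kcnip3 was highest in OPCs, at 473 and 513 CPM in WT, against 215 and 296 in KI, where it overlapped with subicular or cortical excitatory neurons. Kcnip4 was highest in DG granule neurons, where every library lay above the 7221 to 8144 CPM of CA1 pyramidal neurons. Kcnab2 was highest in CA1 (92.5 to 102 CPM), and Kcnab1 in oligodendrocytes (632 to 1117 CPM), overlapping with CA1 (677 to 819.5 CPM) and with Pvalb interneurons (646 to 1040 CPM).

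Glial and vascular classes had channel genes of their own. Kcna1 and Kcna6 (Kv1.6) were highest in oligodendrocytes, where Kcna6 stood at 147, 176, 79.2 and 112.5 CPM. Kcnj10 and Kcnj16 (Kir5.1), which form the main potassium buffering channel of glia, were highest in astrocytes, at 23.3 and 29.0 times the median class, and overlapped there with oligodendrocytes and OPCs. Kcnj16 stood at 44.96, 46.4, 36.7 and 46.9 CPM in astrocytes. Kcnk1 (TWIK-1) was highest in astrocytes as well (128 to 177 CPM), above every other class. Kcnk6 (TWIK-2) was highest in microglia at 26.4, 63.6, 74.1 and 39.8 CPM, against 1.27 to 5.24 CPM in OPCs as the next class. Kcnk13 (THIK-1), the resting channel of microglia, stood there at 123, 149, 236 and 128 CPM and overlapped with oligodendrocytes, which held 187 and 204 CPM in WT, against 123 and 69.3 in KI. Kcnh8 (Kv12.1) was highest in OPCs at 248.5, 282, 378 and 147 CPM, 57.8 times the median class. Fibroblasts held the highest Kcnk2 (TREK-1), at 1006, 711.5, 668 and 813 CPM.

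**Figure D5:**
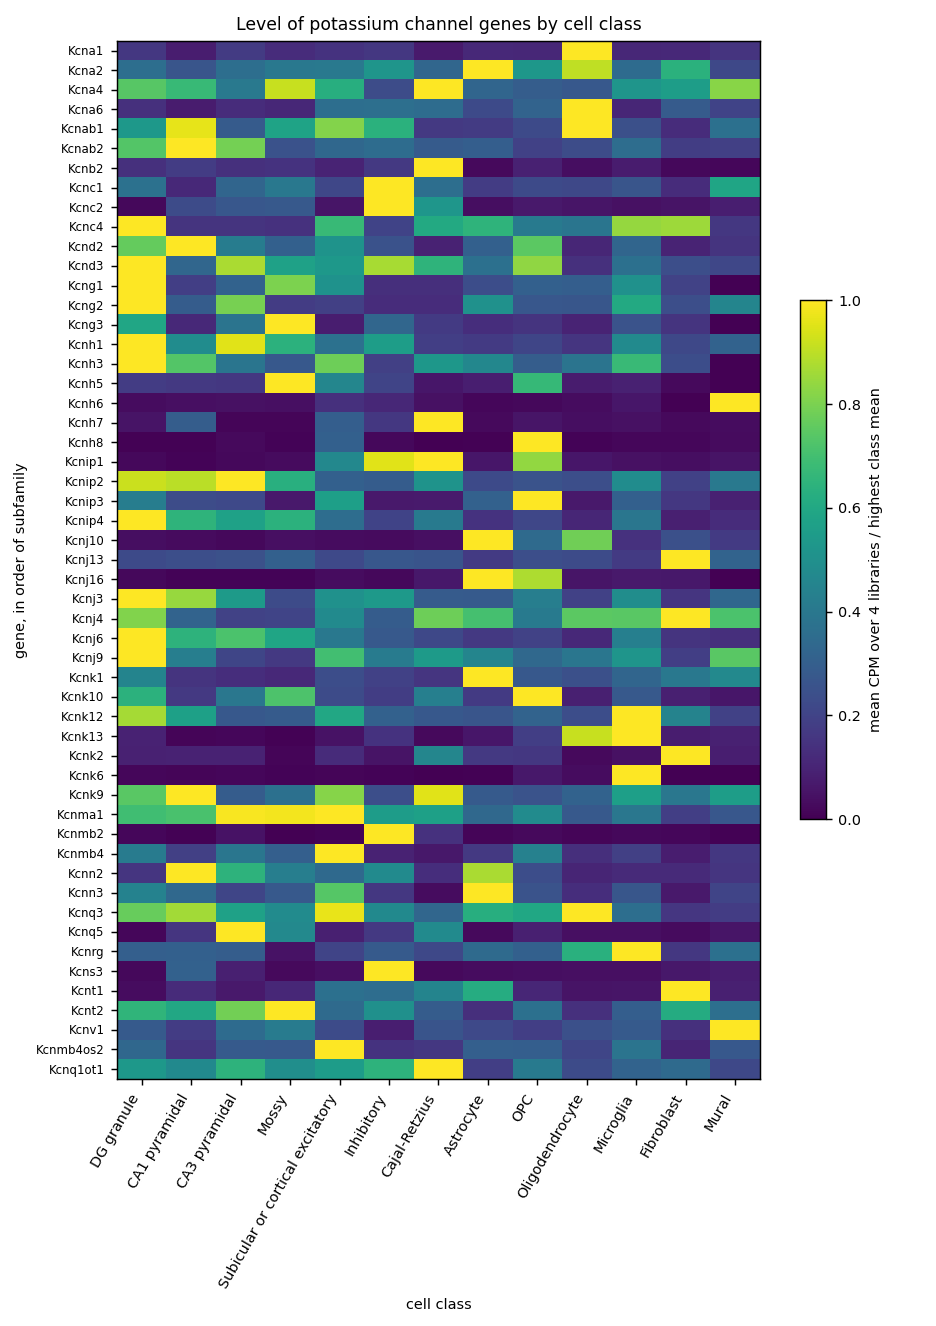
Mean CPM over the 4 libraries of 53 members with at least 20 CPM in a class, as a share of the gene's highest class (colour), by cell class. Single bright cells in a dark row mark genes held mainly by 1 class, such as Kcnmb2 in inhibitory neurons, Kcnh8 in OPCs and Kcnk6 in microglia.

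Seen by subfamily, the called members of DG granule neurons came from many branches, and the counts per branch are small. Of the tested members, 2 of 3 Kcng, 2 of 2 Kcnmb, 2 of 10 Kcnk, 2 of 8 Kcnh, 1 of 3 Kcnn, 1 of 5 Kcnq, 1 of 4 Kcnip and 1 of 10 Kcnj genes were lower, and 2 of 4 Kcnip, 1 of 4 Kcnc, 1 of 8 Kcnh, 1 of 10 Kcnj and the single Kcnma gene were higher. The 4 tested Kcna, 3 Kcnd, 3 Kcnab and 2 Kcnb genes held 0 calls. By span in the genome, the 12 lower members had a median of 151.9 kb and the 6 higher ones of 130.8 kb, both above the 45.3 kb of all coding members and the 17.4 kb of all coding genes. The 45.3 kb includes members not tested in this class. Whether span goes with the UMIs of a gene, and so with a call, was not tested.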

How the data were processed

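Nuclei of frozen hippocampi were counted by a droplet 3' method. Matrices came from Cell Ranger 7.0.1, run by the authors per the file headers, on mm10 per the labels. The deposited values are raw UMI counts per gene and barcode, not normalized. The gene models and whether intronic reads were counted are not given in the sources used here. Positions were taken from GENCODE M21 on GRCm38.

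Barcodes below 500 genes or above 5% mitochondrial UMIs were removed (345). Doublets were scored with Scrublet in scanpy 1.11.5, and 3262 above 0.25 were removed, a common limit set after the automatic one had failed in KI replicate 2. Nuclei were clustered with leidenalg 0.10.2 (2000 variable genes without Kcn genes, 30 components, 20 neighbours, resolution 0.5), and mixed clusters were split once. Names needed at least 3 markers raised 2 times or more. Further limits (mean log2 fold of at least 1, no second class with 90% of its markers raised, median doublet score up to 0.15, and a marker among the top 10 genes of pieces of mixed clusters) were set after clusters had been seen. These class names are not the study's own and may differ from them.

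Counts were summed per library and class and tested with edgeR 4.0.16 (R 4.3.3; low-count filter, TMM factors, quasi-likelihood test). The study tested single nuclei with MAST, whereas mice were the replicates here. On simulated data with 200 changed genes, tests were checked for recovery of known changes. Named were, per class, called members with at least 10 CPM in a group (up to 8 per direction), up to 6 called class-by-genotype terms by size, the epilepsy list, and for levels up to 3 members per subfamily by ratio of the highest to the median class, with exceptions said in the text. Members and lists were chosen with earlier results of these data known. Alternatives were library totals, DESeq2, no filter, each library left out, the replicate number as block, doublets kept, nuclei of at least 1000 genes, thinned sums, 2 times the resolution, Kcn genes among the features, and a marker gate per nucleus. A few members are not reported here, and counts include them.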

Additional observations from a re-analysis of the deposited data

Results flagged for a closer look

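The genotype effect of 28 members differed between CA1 pyramidal and DG granule neurons by the class-by-genotype term (edgeR, adjusted p below 0.05). Values given here are the log2 effect in CA1 minus that in DG granule neurons. The effect in CA1 was higher for Kcng3 (2.76), Kcnq1 (2.67), Kcnh5 (2.23), Kcnk9 (1.34), Kcnmb2 (1.19), Kcnk13 (1.12), Kcns3 (1.06) and Kcnk2 (0.84). It was also higher, by less, for Kcnn3 (0.82), Kcnh1 (0.72), Kcnip2 (0.64), Kcng2 (0.64), Kcna6 (0.59), Kcnrg (0.55), Kcnq3 (0.28) and Kcnj6 (0.28). The effect in CA1 was lower for Kcnj9 (-1.28), Kcng1 (-1.13), Kcnh3 (-0.99), Kcnk10 (-0.88), Kcnj4 (-0.71) and Kcnip4 (-0.63). Smaller negative differences were seen for Kcna4 (-0.56), Kcnc2 (-0.54), Kcnma1 (-0.54), Kcnk1 (-0.50) and Kcnj3 (-0.32). DG granule nuclei of WT and KI lay mostly in different clusters, and the part of this in the differences was not tested. With 2 mice per genotype, no group was large enough for the test of a single sample far from the others.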

How the results depend on the processing

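Of the 43 called values, 5 held under every alternative: Kcnh5, Kcng3 and Kcnip4 in DG granule neurons, Kcnk10 in CA1 and Kcnq1 over all nuclei. Over their 551 alternative values, 444 passed, 107 missed the threshold and 0 changed sign. Library totals lowered the median log2 fold change of all genes by at most 0.15 (-0.14 in DG granule neurons, -0.15 in Sst). Counts of called members that moved by more than 1.5 times follow, by class. With DESeq2, 10 in All nuclei, 0 in Cnr1, 1 in Lamp5 and 0 in Pvalb, beside 8.43%, 0.14%, 0.713% and 0.14% of all genes in this order. With thinned sums, 2 in All nuclei and 2 in Sst, beside 0.749% and 0.693% of all genes. Without the low-count filter, 2 in Astrocyte, 2 in CA1, 16 in CA3, 28 in DG granule, 7 in Inhibitory, 9 in Oligodendrocyte, 4 in OPC, 8 in subicular, 3 in Pvalb and 2 in Sst (all genes: 7.38% in CA3, 13.2% in DG granule and 0.524% to 4.04% in the others). At 2 times the resolution, 2 in CA1, beside 5.4% of all genes. With library totals, 3 in CA3, 2 in Lamp5, 2 in Pvalb and 0 in Sst, beside 1.51%, 3.2%, 0.634% and 0.466% of all genes in this order. With the marker gate, 0 in Cajal-Retzius, 2 in Fibroblast, 4 in Inhibitory, 1 in Mossy and 0 in Oligodendrocyte. The shares of all genes there were 0.0254%, 0.933%, 1.77%, 0.961% and 0% in this order. With doublets kept, 0 in Inhibitory and 1 in OPC, beside 0.0122% and 0.575% of all genes. With Kcn genes among the features, 2 in Mossy, beside 0.987% of all genes. With nuclei of at least 1000 genes, 1 in Oligodendrocyte, beside 0.491% of all genes. Leaving out 1 library gave these ranges: All nuclei 1 to 27, Astrocyte 0 to 8, CA1 2 to 27, CA3 1 to 28, DG granule 3 to 40, Fibroblast 0 to 1, Inhibitory 0 to 23, Microglia 0 to 15, Mossy 0 to 3, Mural 0 to 1, Oligodendrocyte 1 to 20, OPC 0 to 11, subicular 0 to 6, Cnr1 1 to 5, Lamp5 0 to 6, Pvalb 0 to 8, Sst 0 to 6, Vip 0 to 4, the class-by-genotype term 11 to 35. In the class fits the share of all genes called moved as well, so these counts are not read as a result about the members. Each of those fits left 1 mouse in a group, so its spread came from the 2 mice of the other group alone, and other causes were not tested. Without KI replicate 1, Kcnma1 in CA1 was -0.13 (adjusted p = 0.0328), and 0.03 with all libraries (lowest to highest with 1 library left out, -0.13 to 0.17), and without KI replicate 2, Kcnh1 in microglia was -1.16 (adjusted p = 0.025), and 0.29 with all (-1.16 to 1.03), each a change of sign in a value not called with all libraries.

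Replicate numbers were shared by WT and KI, but the labels give no pairing, and same-numbered libraries did not deviate together (correlations from -0.229 to 0.067). With the replicate block the count was 11 in All nuclei, 8 in CA1, 12 in CA3, 5 in Inhibitory, 8 in Oligodendrocyte, 3 in subicular, 2 in Cnr1, 3 in Pvalb, 3 in Sst, and 25 in DG granule neurons, beside 9%, 11.8%, 7.91%, 4.68%, 2.68%, 2.58%, 1.37%, 2.03%, 2.07% and 18% of all genes in this order. With crossed numbers as a block, chosen after seeing the data, it was 1 in microglia and 4 in OPC. The share of all genes called was not computed for these fits, so the counts are not read as a result about the members.

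With 2 mice per genotype, a gene that did not pass is not shown to be unchanged.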

Other observations

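Choroid plexus nuclei were too few to test (12 nuclei with 35530 UMIs, of which 7 nuclei and 29990 UMIs came from WT replicate 1 and 0 nuclei from WT replicate 2), but 2 members known from this epithelium stood out there as pooled values. Kcnj13 (Kir7.1) held 22 UMIs in them, or 619 CPM, against 69.4 CPM in fibroblasts as the highest tested class. Kcne2, a member just above the limit, held 3 UMIs, or 84.4 CPM, against a mean of 0.65 CPM in inhibitory neurons, the highest of the tested classes when interneuron types are not counted apart. Both are values of pooled counts, mostly of 1 library, with no replicate.

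Kcnrg was low in KI replicate 1 in most classes. In oligodendrocytes it was 68.6 and 85.3 CPM in WT, against 9.64 and 52.2 in KI, and in microglia Kcnrg was 105.5 and 143 against 11.6 and 79.6 CPM. Neither passed the test.

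Kcnip1 in OPCs was 262 and 228.5 CPM in WT, against 465 and 420.2 in KI, and Kcnh5 in OPCs was 133 and 162.5 against 72.4 and 75.9 CPM. The groups lay apart for both genes, but neither passed (adjusted p = 0.263 and 0.345, edgeR).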
